A study of Drosophila melanogaster with 3 samples.

Results

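Of 5623 reproducible E(z)-GFP peaks in Drosophila prepupae, 986 had their summit inside an intron and far from any start of a protein-coding gene. A summit, the position of highest signal in a peak, was taken as a member when it lay within the span of a protein-coding gene, in no annotated exon, and more than 5 kb from the nearest transcription start of a protein-coding gene. The members were 17.5% of all summits (exact binomial 95% interval 16.5 to 18.6%). The remaining 4637 summits included 1052 intronic summits 1 to 5 kb from a start and 641 intergenic summits beyond 5 kb. The rule used position only. The intronic summits just outside its distance limit were in NK7.1 at 4980 bp, dachs at 4982 bp and cv-c at 4992 bp, and those just inside were in Pde11 at 5001 bp, Mnt at 5009 bp and tara at 5015 bp.

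The peaks came from chromatin immunoprecipitation and sequencing of whole prepupae, males and females pooled, of a single transgenic line that stably carried E(z) with GFP at its C terminus. The 3 biological replicates formed 1 group, of unknown age in hours, and no other genotype or treatment was compared. The antibody field of the labels names E(z), while the description gives a precipitation with anti-GFP. Whole animals were used, so the peaks of different tissues were not separated.

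E(z) is the histone methyltransferase of Polycomb repressive complex 2 (PRC2), which methylates histone H3 on lysine 27. In flies the Polycomb and trithorax group proteins bind Polycomb response elements, DNA elements that hold developmental genes silent or active. Several well studied elements lie in introns or many kilobases from the promoter they act on, as in the Hox gene Ubx. Sites of the GAGA factor (GAGAG), of Pho (GCCAT), of Zeste (TGAGTG), of Combgap (GTGTGTGT) and of Sp1/KLF proteins (GGGCGG) are known from such elements, and TATCGATA is the site of DREF, a promoter-associated factor.

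The windows below show the sequence at 6 of the strongest members found in all 3 replicates. Each is 201 bases of the RefSeq copy of the dm6 genome, plus strand, centred on the summit, and capitals mark matches to the words above on either strand. The windows are chr3L:3060695-3060895 in the intron of CG32486, chrX:1951812-1952012 and chrX:1947651-1947851 in Hr4, chr2L:21009426-21009626 in CG42238, chrX:2300603-2300803 in Raf and chr2L:2433546-2433746 in dpp.
CG32486: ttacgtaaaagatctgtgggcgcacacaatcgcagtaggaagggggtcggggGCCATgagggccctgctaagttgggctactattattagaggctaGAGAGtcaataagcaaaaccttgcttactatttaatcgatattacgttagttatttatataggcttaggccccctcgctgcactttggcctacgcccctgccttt
Hr4 (rank 65): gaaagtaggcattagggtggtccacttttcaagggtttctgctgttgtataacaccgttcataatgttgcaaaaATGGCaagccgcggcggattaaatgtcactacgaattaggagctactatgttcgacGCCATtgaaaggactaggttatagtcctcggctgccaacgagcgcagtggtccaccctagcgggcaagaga
CG42238: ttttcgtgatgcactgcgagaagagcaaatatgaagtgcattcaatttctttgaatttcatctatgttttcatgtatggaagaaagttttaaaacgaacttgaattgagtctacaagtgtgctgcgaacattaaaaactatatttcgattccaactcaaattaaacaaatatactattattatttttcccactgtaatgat
Raf: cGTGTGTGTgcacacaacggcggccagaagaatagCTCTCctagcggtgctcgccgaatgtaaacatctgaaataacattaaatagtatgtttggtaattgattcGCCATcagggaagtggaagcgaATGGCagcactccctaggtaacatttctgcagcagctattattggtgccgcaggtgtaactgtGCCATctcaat
dpp: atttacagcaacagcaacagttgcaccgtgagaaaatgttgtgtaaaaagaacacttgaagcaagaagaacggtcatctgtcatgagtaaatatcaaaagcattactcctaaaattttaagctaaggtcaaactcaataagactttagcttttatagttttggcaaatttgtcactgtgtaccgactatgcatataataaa
Hr4 (rank 119): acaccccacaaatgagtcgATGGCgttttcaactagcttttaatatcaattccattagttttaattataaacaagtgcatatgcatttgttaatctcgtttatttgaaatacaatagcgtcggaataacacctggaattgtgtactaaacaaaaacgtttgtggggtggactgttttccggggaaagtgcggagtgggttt
Raf had 5 matches, of which 3 were GCCAT. CG32486 had 1 GAGAG and 1 GCCAT. Hr4 had 2 GCCAT at its stronger summit and 1 at the other. CG42238 and dpp had no match in these windows, and their GC contents were 29.9% and 33.3%, against 47.3 to 48.8% in Raf, CG32486 and the stronger Hr4 window.

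The strongest members are named from those found in every replicate, so their presence in each one is part of the choice. The CG32486 summit, in a gene without a descriptive name, ranked 18 by signal in the reproducible list, and 23, 10 and 22 in replicates 1, 2 and 3. It was 5716 bp from the nearest start, that of CG16753. The stronger summit of Hr4, an ecdysone-induced nuclear receptor, ranked 65, and 95, 49 and 65 in the replicates, and its other summit ranked 119, and 249, 80 and 144. The CG42238 summit ranked 78, and 115, 84 and 62 in the replicates, at 40559 bp from the nearest start. The summit in Raf, the kinase that activates the MAP kinase pathway, ranked 94, and 134, 85 and 107 in the replicates. The summit in dpp, a BMP ligand, ranked 114, and 106, 139 and 137 in the replicates, and lay 5274 bp from a dpp start. Others among the 15 strongest members found in all replicates were in dnr1, a ubiquitin ligase gene, in Psc and trx of the Polycomb and trithorax groups, in the Hippo pathway gene ex, in the ecdysone-induced receptor gene Eip75B, in the splicing helicase gene Prp16, in the Hox gene abd-A, in its neighbour MSAmiP and in tara. The ranks of some spread widely over replicates 1, 2 and 3: those of the abd-A summit were 392, 206 and 51, those of the MSAmiP summit 366, 135 and 70, and those of the trx summit 92, 245 and 380.

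Members were sparser than summits elsewhere on the arms and ranked lower. The introns open to a member, called eligible intron here, made up 27.3 Mb of 133.9 Mb. They held 36.1 members per Mb (exact 95% Poisson interval 33.9 to 38.4, counting error only), against 43.5 summits per Mb (42.3 to 44.8) on the rest of the arms, a ratio of 0.829. Among the 5623 highest-signal peaks of replicates 1, 2 and 3, 992, 942 and 802 summits met the rule. Replicate 3 thus held the fewest. The densities were 36.3, 34.5 and 29.3 per Mb in eligible intron, against 43.5, 43.9 and 45.2 per Mb elsewhere. All 3 replicates had the lower density in eligible intron, with a mean log2 ratio of -0.41 ± 0.19 (SD, n = 3; exact two-sided sign-flip permutation p = 0.25, the smallest that 3 replicates allow).

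A replicate was said to hold a member if one of its 5623 highest-signal peaks covered the summit. By this measure 87.7, 82.0 and 66.1% of the members were found in replicates 1, 2 and 3, against 83.4, 83.5 and 75.05% of the other summits. The direction differed among replicates, and the mean difference was -1.99 ± 6.67 percentage points (SD, n = 3; exact sign-flip permutation p = 0.75). Without replicate 3 it was +1.48. In all 3 replicates, 53.5% of the members were found, against 56.4% of the others. With the 2N highest-signal peaks of each replicate, N being 5623, the order turned to 87.5% of members against 84.3% of others. The median rank of the members was 3038, 3113 and 3844.5 in the 3 replicates, against 2744, 2753 and 2879 for the others. Members had the lower-ranked signal in each of them, by 540 ± 370 ranks (SD, n = 3; exact p = 0.25, the smallest possible). Of the 100 strongest peaks of the reproducible list 5 were members, and of the 1000 strongest 123.

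**Figure D1:**
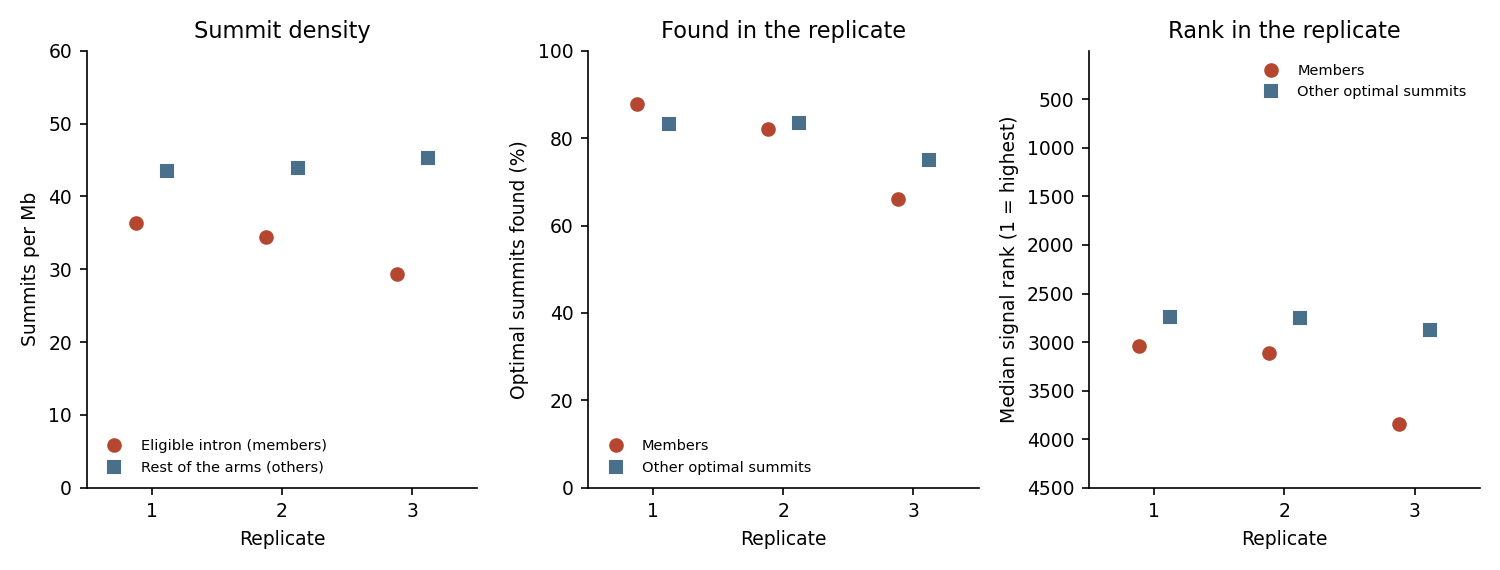
Density of summits (per Mb), share of reproducible summits found (percent) and median signal rank (1 is the highest) in each replicate, with members as circles left of the squares for the other summits or the rest of the arms. Density was 29.3 to 36.3 per Mb for members and 43.5 to 45.2 per Mb elsewhere; the shares found cross between replicates.

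Member density was lower farther from the nearest start. The median distance was 9926.5 bp and the largest 86539 bp. Eligible intron held 50.9 members per Mb at 5 to 10 kb from a start, 42.7 per Mb at 10 to 20 kb, 27.3 per Mb at 20 to 50 kb and 1.56 per Mb beyond 50 kb, where 7 members lay in 4.50 Mb. The replicate lists gave 46.4 ± 4.43, 39.5 ± 5.22, 26.6 ± 2.67 and 1.41 ± 0.128 per Mb (SD, n = 3) in the same order. Much of the farthest intron was repeat-rich. Stretches of 100 kb in which at least 30% of the bases are repeat-masked in the reference held 5.05 Mb of eligible intron and 23 members (4.56 per Mb, 2.89 to 6.84), and 3.54 Mb of that was beyond 50 kb with 0 members. The other summits were at 5.07 per Mb there. Without these stretches, which were set aside after the densities were seen, the densities were 51.6, 44.3, 30.9 and 7.30 per Mb from the nearest to the farthest bin, and the overall ones were 43.2 per Mb for members and 48.5 per Mb for other summits.

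**Figure D2:**
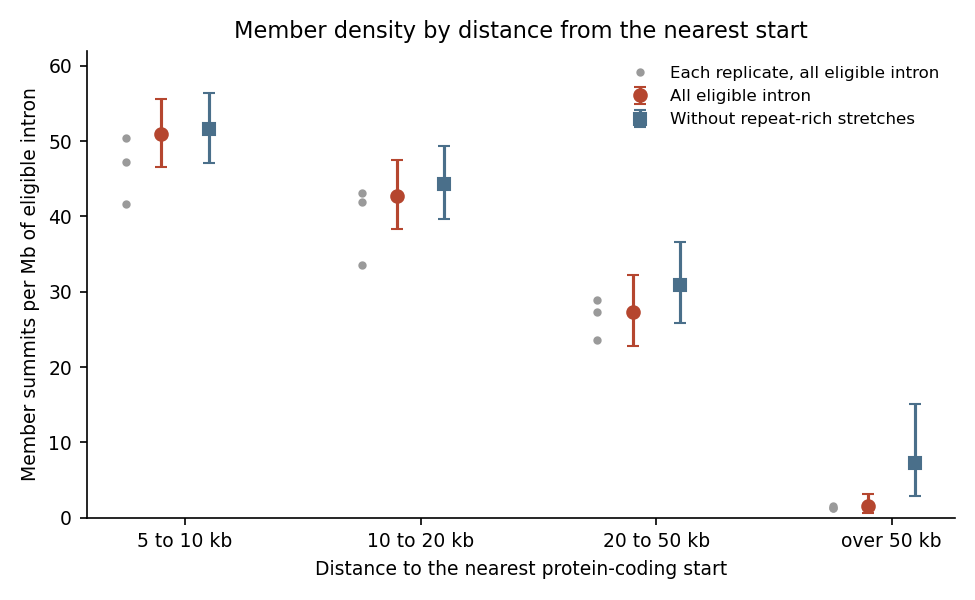
Members per Mb of eligible intron by distance to the nearest protein-coding start, with exact 95% Poisson intervals: circles for all eligible intron, squares without repeat-rich stretches, and dots for each replicate over all eligible intron. Density decreases with distance in both versions, and beyond 50 kb it is 1.56 and 7.30 per Mb.

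By arm, the density was 44.5 members per Mb on 2L, 43.1 on X, 34.5 on 3L, 32.7 on 3R and 30.3 on 2R. The small chromosome 4 had 1 member in 0.198 Mb. The intervals of 2L and X (38.3 to 51.3 and 37.4 to 49.4) lay above the value of 2R and did not separate from each other. These arm densities include repeat-rich stretches and were not computed without them. On 3R, Myo81F and Pzl had 1790 and 627 kb of eligible intron, 88.9 and 86.4% of it repeat-rich, and 0 members. How far such sequence accounts for the order of the arms was not tested. Members sat in long introns, with a median of 22473 bp. The first intron of the longest transcript held 34.0% of the members, against 20.4% of the eligible bases, and 34.0% against 22.8% without repeat-rich stretches. The nearest start belonged to the host gene for 67.3% of the members (64.3 to 70.3%), against 62.1% of eligible bases sampled every 200 bp. For the other 322 members the nearest protein-coding start was that of another gene. Starts of noncoding genes were within 1 kb for 3.04% of the members, against 1.49% of the eligible bases. Another reproducible summit lay within 2 kb of 38.9% of the members, against 45.4% of the other summits, and 70 members were in peaks that overlapped another reproducible peak.

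The hosts were 411 of the 1830 genes with any eligible intron (22.5%), and a few of them held many members. There were 174 hosts with 1 member, 104 with 2, 79 with 3 to 4 and 54 with 5 or more, and these 54 held 361 members. Longer genes were more often hosts but not denser. Hosts were 10.5% of genes with under 10 kb of eligible intron, 34.7% at 10 to 20 kb, 47.0% at 20 to 50 kb and 51.3% above. Density was 53.9, 52.9, 42.5 and 21.3 members per Mb in these bins, and 55.5, 53.3, 43.1 and 32.7 per Mb without repeat-rich stretches. A member in 2 overlapping genes counts for each, so the genes had 1018 pairs of host and member.

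To allow for gene length, each of the 392 genes with at least 20 kb of eligible intron was set against the overall density of these genes, 29.9 per Mb. A gene was called above or below when the exact 95% Poisson interval of its own density excluded that value. The interval treats summits as independent, although neighbouring summits of overlapping peaks each counted. In aus, called above with 3 members, summits 200 bp apart both counted. The calls were not repeated with such summits merged. By this rule 46 genes (11.7%) were above and 11 (2.81%) below, and 203 had no member. A gene with no member could be called below only with over 123 kb of eligible intron. In each of the 3 replicate lists 24 genes (6.12%) were above, of which 23 were among the 46, and 8 genes (2.04%) were below. Without repeat-rich stretches the density over all tested genes rose from 29.9 to 38.0 per Mb. Then 33 of 365 genes (9.04%) were above, all of them among the 46, and 9 (2.47%) were below. In Ubx, fz, dlp, bi, twi and Ptp10D, which lost the call above, 0% of the eligible intron was repeat-rich. The same held for dpr6, dpr8, rg and mbl, which were below only without these stretches. The members and intron of these genes were unchanged, and only the density they were set against differed. Some called genes share their members: CG46458 lies within Antp, CG46467 within Glut4EF, and CG42741 overlaps twi.

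**Figure D3:**
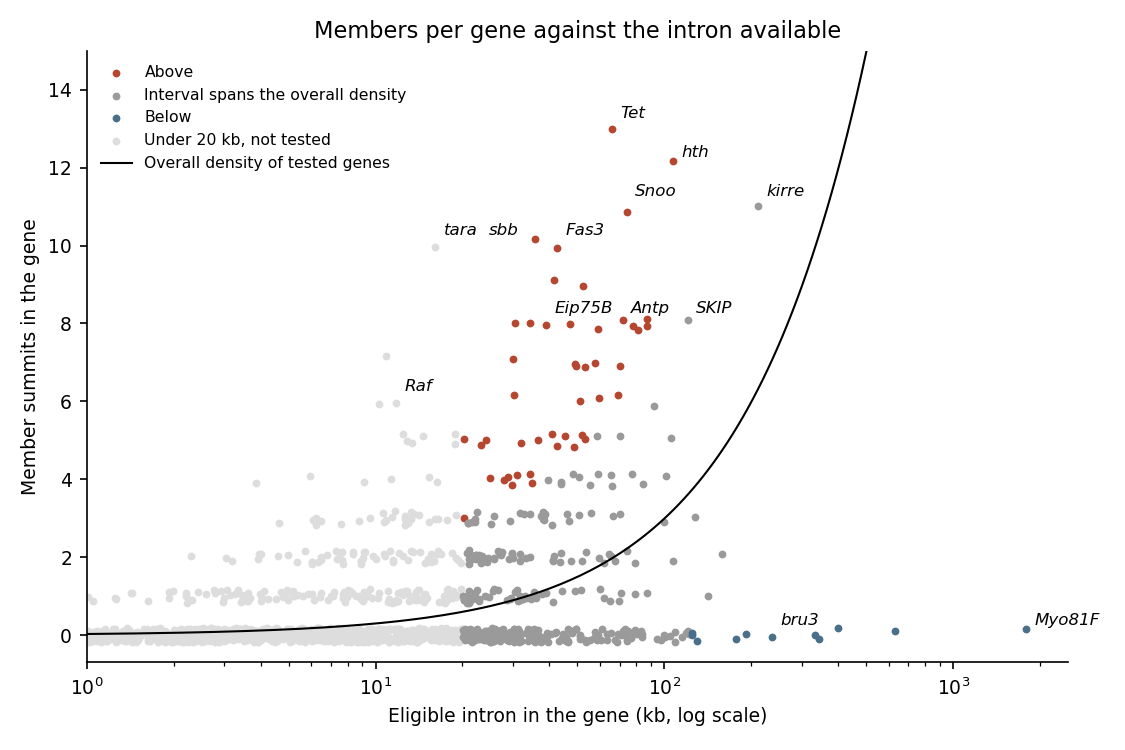
Members per gene against eligible intron (kb, log scale; points shifted slightly up or down for visibility, genes under 1 kb not drawn), coloured by call against the overall density of 29.9 members per Mb (line). Tet, with 13 members, stands highest, and Myo81F has the longest eligible intron with 0.

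Tet, which encodes a dioxygenase related to mammalian DNA demethylases, held the most members of all hosts. It had 14, 13 and 11 summits in replicates 1, 2 and 3, and 13 in the reproducible list over 65.8 kb of eligible intron (198 per Mb, 105 to 338), above in all 3 replicates. Of these 13 members, 5 were found in all 3 replicates, against 53.5% of all members. The Tet members were spread from 9.96 to 78.7 kb along the gene. Their signal was moderate, with ranks 833 to 5533 and a median of 3264. Snoo, a homologue of the Ski corepressors of TGF-beta signalling, had 10, 8 and 10 summits in the replicates and 11 members (149 per Mb, 74.3 to 266). sbb, the corepressor Scribbler, was the densest, with 11, 11 and 9 summits in the replicates and 10 members in 35.6 kb (281 per Mb, 135 to 517). All 10 lay 11.5 to 26.8 kb from its 5' end. Other reproducible summits in sbb, at 1.16 kb and at 42.7 to 69.3 kb, were outside the intron open to a member. Fas3, a homophilic adhesion protein, had 10, 7 and 5 summits in the replicates and 10 members (235 per Mb), of which none ranked better than 3017 and 3 were found in all replicates. heca had 9 members, of which 8 were found in all replicates, and plum, an immunoglobulin superfamily gene, had 9, of which 4 were. rdx, which targets the Hedgehog effector Ci for degradation, had 9, 8 and 9 summits in the replicates and 8 members (234 per Mb).

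Other hosts among the densest were CG12535 with 8 members (263 per Mb), Bx, a LIM-only cofactor gene, with 5 (248 per Mb), the integrin gene mew with 5 (216 per Mb) and the repressor gene cic with 5 (207 per Mb). All 5 mew members were found in every replicate, against 2 of the 5 in Bx. SKIP also had 8 members, but over 120 kb, and at 66.4 per Mb (28.7 to 131) its interval included the overall density. The same holds for kirre, a receptor of myoblast founder cells, with 11 members over 211 kb (52.1 per Mb, 26.0 to 93.2). The kirre members lay 270 to 346 kb from its 5' end. Other reproducible summits in kirre lay from 3.84 to 357 kb, outside the intron open to a member.

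**Figure D4:**
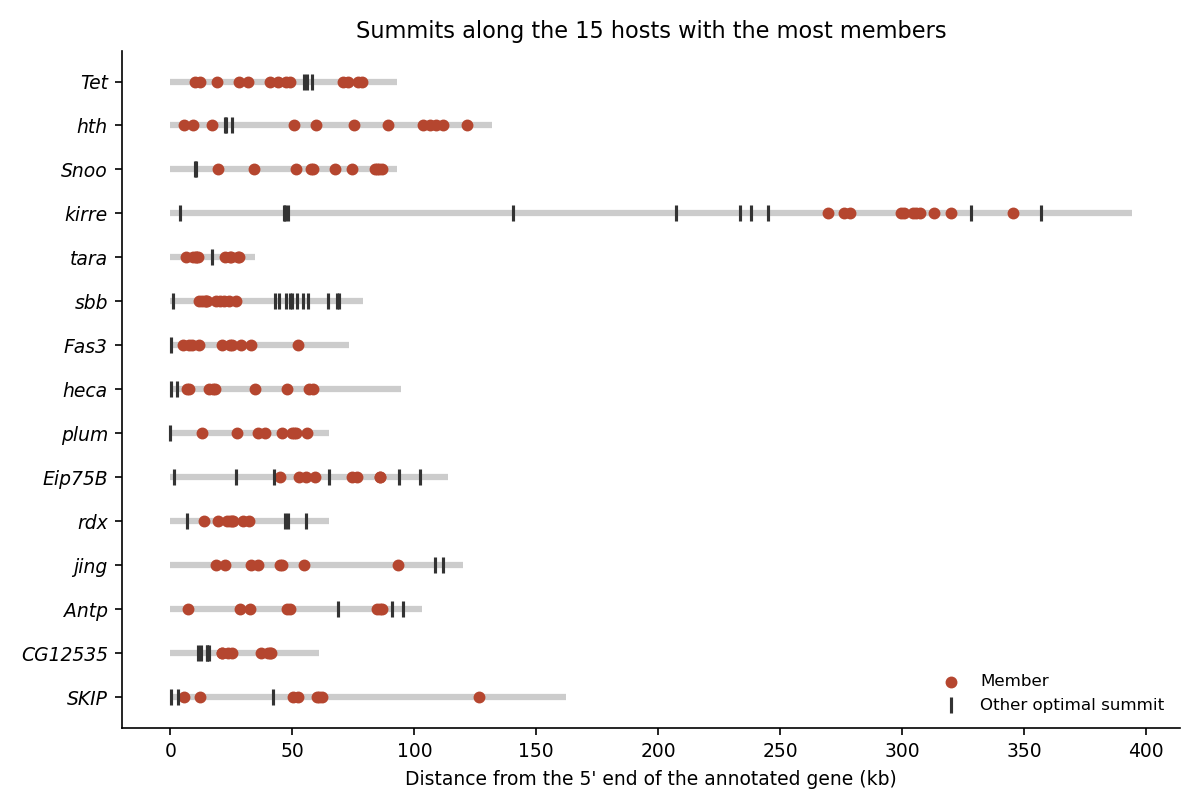
Summits along the 15 hosts with the most members, by distance from the 5' end of the annotated gene (kb): circles are members, vertical ticks are other reproducible summits in the gene, and grey bars are the gene spans. Members of Tet and hth are spread through the gene, while those of sbb lie at 11.5 to 26.8 kb and those of kirre at 270 to 346 kb. Members can lie only in eligible intron, so their positions also reflect the rule.

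Gene groups ranged from 164 per Mb in Polycomb and trithorax group genes to 2.53 per Mb in ion channel, receptor and synaptic genes. The value over all genes with eligible intron was 36.1 per Mb, and 33.4 ± 3.44 per Mb in the replicate lists (SD, n = 3). The groups are described by counts, and no test was made of a group. Only 6 of the 381 group genes with eligible intron were in more than 1 group. Among them, aos, a signalling gene, also counted with developmental transcription factors. The RNA-binding protein gene bru2 also counted with ion channel, receptor and synaptic genes.

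Of the 8 Hox genes, the selectors of segment identity, all had eligible intron, 4 were hosts, and 16 members gave 80.7 per Mb (46.1 to 131; replicates 72.3 ± 7.71). Of the 3 tested, 2 were above and 0 below, against 11.7 and 2.81% of all tested genes. Without repeat-rich stretches Antp stayed above and Ubx, with 0% of its eligible intron in them, did not. Antp had 7, 5 and 9 summits in the replicates and 8 members over 71.7 kb (112 per Mb, 48.2 to 220), of which 3 were found in all replicates. It was above in 2 of the replicates. Ubx had 5, 6 and 5 summits in the replicates and 6 members over 59.4 kb (101 per Mb, 37.1 to 220), and was also above in 2. The strongest Ubx member ranked 965 in the reproducible list, and 1843, 1273 and 345 in the replicates. abd-A and pb had 1 member each, and Scr, with 13.6 kb, and lab, with 5.08 kb, had none. Without Antp the group was at 63.3 per Mb.

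Polycomb and trithorax group genes, the system's own subunits and antagonists, had 9 hosts among 19 genes and 31 members (164 per Mb, 112 to 233; replicates 157 ± 12.2). Of the 2 tested, 1 was above and 0 below, against 11.7 and 2.81% of all tested genes. The gene above, jing, was also above without repeat-rich stretches. tara, a trithorax group gene, held 10 members in 16.1 kb, too short to be tested, with 8, 7 and 5 summits in the replicates. Of its 10 members, 3 were found in all 3 replicates. Neighbouring tara summits lay as close as 205 and 227 bp, and each counted. jing, whose mammalian homologue AEBP2 is a PRC2 subunit, had 9 summits in each replicate and 8 members over 81.1 kb (98.6 per Mb, 42.6 to 194), and was above in all 3. osa, a subunit of the BAP remodelling complex, had 3 members, and trx, a histone H3 lysine 4 methyltransferase, had 2. kis and crol had no member in 3.68 and 2.90 kb. Without tara the group was at 122 per Mb.

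Ecdysone response genes, which act in the hormone cascade of metamorphosis, had 13 hosts among 19 genes and 46 members (96.3 per Mb, 70.5 to 128; replicates 94.9 ± 2.42). Of the 11 tested, 4 (36.4%) were above and 0 below, against 11.7 and 2.81% of all tested genes. Without repeat-rich stretches the same 4 were above of 9 tested (44.4%), against 9.04% of all tested genes. Eip75B had 7, 8 and 9 summits in the replicates and 8 members, of which 7 were found in all 3 (205 per Mb, 88.4 to 404). Hr4 had 5 members, all found in every replicate (157 per Mb, 50.8 to 365). tai, a coactivator of the ecdysone receptor, had 7 members, of which 3 were found in all replicates. EcR, the receptor itself, had 5, of which 1 was found in all replicates. br, the early gene of the Broad factors, had no member in 36.6 kb, although it had a promoter summit, and its density could be up to 101 per Mb. spok, an enzyme of ecdysone synthesis, had none in 25.3 kb, all in repeat-rich stretches.

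Developmental transcription factors had 39 hosts among 84 genes and 97 members (74.3 per Mb, 60.2 to 90.6; replicates 71.7 ± 2.69), with 6 of the 19 tested above and 0 below. Over all tested genes 11.7% were above and 2.81% below. Without repeat-rich stretches 4 of the 19 tested (21.1%) were above, against 9.04% of all tested genes, and bi and twi no longer were. hth, the cofactor of Hox proteins, had 13, 10 and 11 summits in the replicates and 12 members over 107 kb, above in all 3. ush, a GATA cofactor, had 6, 7 and 6 summits and 7 members (234 per Mb). pnt, an ETS effector of MAP kinase signalling, had 6, 5 and 5 summits and 6 members (199 per Mb), of which 3 were found in all replicates. lola had none in 21.6 kb. Signalling ligands, receptors and regulators had 24 hosts among 39 genes and 61 members (84.5 per Mb, 64.7 to 109; replicates 75.3 ± 14.6), with 2 of the 11 tested above and 0 below. Both of these, fz and dlp, lost their call without repeat-rich stretches, where 0 of 11 were above, against 9.04% of all tested genes. Neither had repeat-rich eligible intron, and only the density over all tested genes changed. fz, a Wnt and planar polarity receptor, had 6 members over 69.3 kb (86.6 per Mb, 31.8 to 188). tkv, a BMP receptor, had 5 in 18.9 kb, fz2 had 4 and the glypican gene dlp had 4. The FGF ligand gene bnl had none in 33.7 kb, and kek2 none in 14.5 kb. The replicates of the signalling group spread from 61.0 to 90.1 per Mb.

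Axon guidance and cell adhesion genes had many long introns and fewer members per Mb. They had 29 hosts among 111 genes and 80 members (24.1 per Mb, 19.1 to 29.96; replicates 23.2 ± 2.87). Of the 59 tested, 5 (8.47%) were above and 0 below, against 11.7 and 2.81% of all tested genes, and the median density was 0, as over all tested genes. Besides kirre and Fas3, ds, an atypical cadherin gene, and ed, an adhesion gene, had 7 members each and were above (142 and 100 per Mb). dpr6 and dpr8, of a family of neuronal surface receptors, had none in 121 and 114.7 kb. Without repeat-rich stretches 4 of 58 (6.90%) were above, Ptp10D no longer being so, against 9.04% of all tested genes. There dpr6 and dpr8 (3.45%) were below, against 2.47% of all tested genes. RNA-binding protein genes were at 16.3 per Mb (9.66 to 25.8; replicates 14.8 ± 2.28), with 9 hosts among 21 genes and 18 members, and of the 11 tested 0 were above and 1 below. sm and heph had 4 members each, pum 3 and msi 2. bru3 had 0 in 235 kb (at most 15.7 per Mb) and mbl 0 in 100 kb. Without repeat-rich stretches both were below, 2 of 11 tested (18.2%), against 2.47% of all tested genes.

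Ion channel, receptor and synaptic genes, which serve differentiated neurons, were the sparsest. They had 3 hosts among 70 genes and 4 members in 1.58 Mb (2.53 per Mb, 0.688 to 6.47; replicates 2.74 ± 0.365), and of the 27 tested 0 were above and 1 (3.70%) below, against 2.81% of all tested genes. Ca-beta had 2 members, both found in every replicate, and dnc and nAChRalpha6 had 1 each, also found in every replicate. The gene below was Snap25, with none in 177 kb, all of it in repeat-rich stretches. rg had none in 109 kb and was the 1 gene below of 26 (3.85%) without those stretches, against 2.47% of all tested genes. Muscle structure genes had 2 hosts among 16 genes and 2 members, in Zasp52 and Mef2 (17.5 per Mb, 2.12 to 63.3). The 1 tested gene was called neither way. Mef2, counted in this group, encodes a transcription factor rather than a structural protein. Neither member was found in all 3 replicates. Cytosolic ribosomal protein genes had no eligible intron.

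The summits of the 30000-peak pooled list that did not pass the reproducibility threshold gave a different order of groups. They were densest in Hox genes, at 838 per Mb, then at 525 per Mb in Polycomb and trithorax group genes and 521 per Mb in developmental transcription factors, against 204 per Mb over all genes. Signalling genes were at 414 per Mb and ecdysone response genes at 358 per Mb. Adhesion genes were at 183, RNA-binding protein genes at 167 and muscle structure genes at 158 per Mb, and ion channel, receptor and synaptic genes at 75.8 per Mb.

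**Figure D5:**
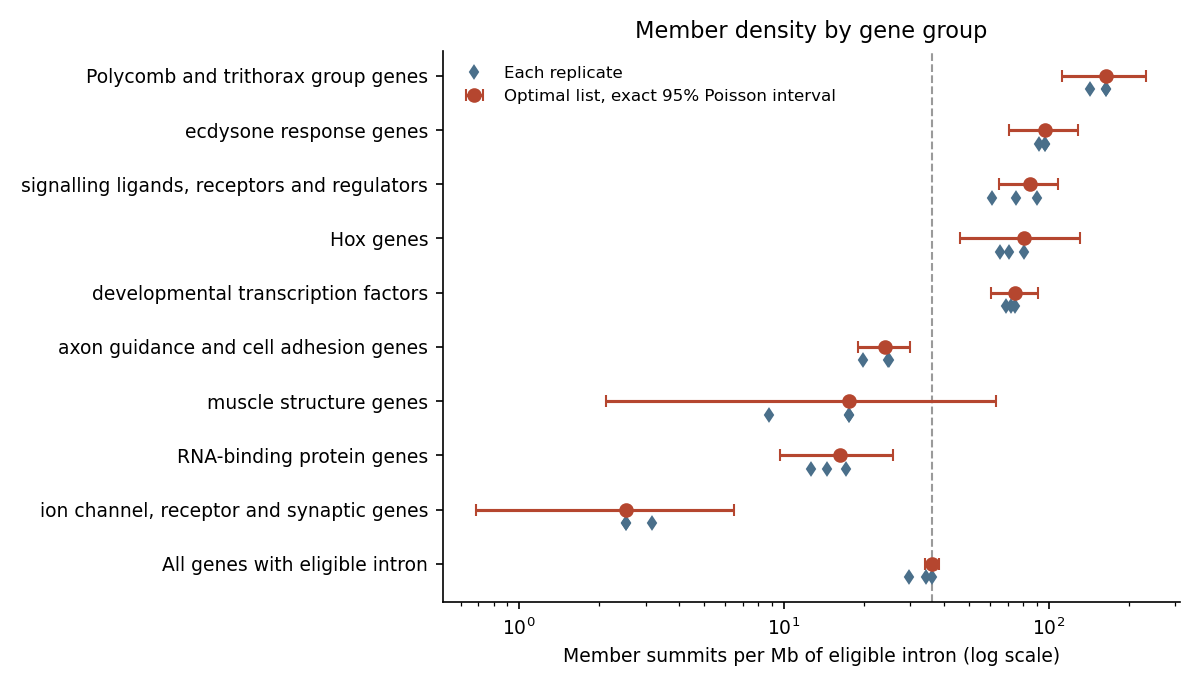
Members per Mb of eligible intron by gene group (log scale), as circles with exact 95% Poisson intervals, with each replicate as a diamond and the value over all genes, 36.1 per Mb, as a dashed line. A total of 5 groups lie above the line and 4 below it, with ion channel, receptor and synaptic genes at 2.53 per Mb. The interval of muscle structure genes spans the line, and the line does not allow for gene length.

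Hosts had a second kind of E(z) site more often than other genes: 63.5% of them (58.6 to 68.2%) had a promoter summit, a reproducible summit within 1 kb of one of their own starts, against 28.9% (26.5 to 31.3%) of genes with eligible intron and no member. The difference was present at each length. With under 10 kb of eligible intron the shares were 58.7% and 29.3%, at 10 to 20 kb 65.3% and 33.7%, at 20 to 50 kb 62.6% and 24.3%, and above 50 kb 72.4% and 16.4%. The 46 genes called above were all hosts, and 31 of them had a promoter summit. Of all 392 tested genes, 203 of which had no member, 169 (43.1%) had one. Hosts of these lengths were at 62.6 and 72.4%, so this contrast is largely that between hosts and other genes. sbb, ush and Eip75B had a promoter summit, while CG12535, Bx, mew and Hr4 did not. The share depends on the list: in the lists of replicates 1, 2 and 3, 53.2, 57.4 and 76.5% of the hosts had a promoter summit.

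Most of the words searched were about as frequent at the members as at the other summits. Within 250 bp of the summit, 56.1% of the members (52.9 to 59.2%) held GAGAG on either strand, against 60.2% of the other summits and 44.4% of 44303 windows of the same length in eligible intron without a pooled peak. Windows with 3 or more GAGAG were 16.2% of the members, 23.5% of the others and 6.11% of the background. GCCAT was in 62.6% of member windows, against 59.0% at other summits and 66.6% in the background. TGAGTG was in 27.0%, 27.3% and 22.7%, GTGTGTGT in 14.4%, 14.9% and 10.6%, and GGGCGG in 15.7%, 15.3% and 15.4%, in the same order. TATCGATA was in 0.811% of member windows (0.351 to 1.59%), against 2.85% at other summits (2.39 to 3.37%) and 1.13% in the background. Matches of different words shared bases in 1.72% of member windows. Mean GC content was 41.0 ± 4.42% in member windows, 41.5 ± 5.61% at other summits and 40.5 ± 6.21% in the background (SD over windows). Within 100 bp of the summit it was 35.6%, 38.0% and 40.3%, and there GGGCGG, GTGTGTGT and TATCGATA changed sides against the background, while GAGAG did not.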

How the data were processed

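E(z)-GFP was mapped by ChIP-seq in 3 biological replicates of whole prepupae, 1 group per the labels. The authors deposited, for dm6, a relaxed list of 30000 peaks per replicate, one from pooled data and an optimal (here, reproducible) list thresholded on the irreproducible discovery rate. The signal values the authors deposited have no stated scaling and served only for ranks inside each list. Also deposited were -log10 q-values, which decided nothing here, and summit offsets, which placed the summits. Aligner and peak caller: not given in the sources used here. Sequencing depth is unknown from these lists, so the intervals cover counting error of summits only. The dm3 lists were not used.

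Genes came from Ensembl release 115 (BDGP6.54), and the sequence is that of RefSeq for genome release 6. A member lay in a protein-coding gene span on 1 of 6 arms, outside the exons of every annotated gene, noncoding and transposable element genes included, and over 5000 bp from a protein-coding start. Replicates entered as their 5623 highest-signal peaks. Members, gene lists, tests and thresholds were chosen with earlier results of these data known. Of the list symbols, 673 matched by symbol, 11 by synonym and 10 not at all. Named genes were the hosts of the 15 strongest members found in all replicates, the 15 with the most members, the 10 densest with at least 3 members and, per list, up to 4 with the most members and 2 with the longest eligible intron and none; genes sharing members and the genes below were named after their values were seen. Intervals are exact Poisson or Clopper-Pearson at 95%. Differences between replicates were tested by exact two-sided sign-flip permutation. The gene calls were tested on simulated data: at the observed density strongly raised genes were mostly called and moderately raised ones mostly missed, and at a lower simulated density the calls fell short of the recovery first required, so the requirement was kept for the observed density alone. Python 3.11.15, numpy 2.4.6, scipy 1.17.1 and pandas 2.3.3 were used. Repeat-rich stretches and the pooled relaxed summits were added after seeing the data.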

Additional observations from a re-analysis of the deposited data

How the results depend on the processing

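No paired analysis was possible because there is 1 group. Of 167 alternative values 79 kept within the spread (counts within 1.5 times), 85 moved beyond it without changing sides, and 3 reversed; the density ratios of the gene groups to all eligible intron all stayed on their side of 1. Groups are named by a word of their label.

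The main values were 986 members, 36.1 per Mb, 411 hosts, 46 above and 63.5% of hosts with a promoter summit. With only summits found in all 3 replicates there were 528 members, 19.3 per Mb, 41.6% of hosts with a promoter summit and 65.7% with a host start nearest; group ratios were 3.14 (ecdysone), 0.763 (adhesion), 0.131 (channel), 0.281 (RNA-binding) and 0 (muscle). In the 2811 strongest peaks there were 449 members, 16.4 per Mb, 271 hosts, 29 above and 40.2% with a promoter summit; ratios were 6.45 (Polycomb), 3.44 (ecdysone), 2.11 (signalling) and 0.275 (RNA-binding).

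At more than 2 kb there were 1594 members (28.3%), 41.3 per Mb, a ratio to the rest of 0.977, 651 hosts and 72.2% with a host start nearest; group ratios were 1.70 (developmental), 4.37 (Polycomb), 0.631 (adhesion), 0.120 (channel), 0.543 (RNA-binding) and 0.611 (muscle). At more than 10 kb there were 486 members (8.64%), 27.8 per Mb, a ratio of 0.629, 222 hosts and 64.2% with a host start nearest; group ratios were 2.90 (Hox), 2.95 (developmental), 5.38 (Polycomb), 0.781 (adhesion), 0.0967 (channel), 0.517 (RNA-binding) and 0 (muscle). With starts of all annotated genes 15.3% were members. Without repeat-rich stretches density was 43.2 per Mb and ratios were 1.72 (developmental), 3.77 (Polycomb), 1.96 (signalling), 0.571 (adhesion) and 0.377 (RNA-binding). At least 50 kb of eligible intron gave 24 genes above and a 99% interval gave 26. With 2N peaks per replicate 87.5% of members were found.

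Leaving out each replicate, which keeps summits found in both others, gave 573 to 730 members (730 without replicate 3), 16.1 to 17.9% of summits, 20.97 to 26.7 per Mb, ratios to the rest of 0.750 to 0.850, 304 to 352 hosts, 34 to 37 above, 45.2 to 48.2% with a promoter summit and 65.1 to 66.1% with a host start nearest. Group ratios were 1.51 to 2.65 (Hox; 1.51 without replicate 3), 1.92 to 2.37 (developmental), 4.01 to 4.76 (Polycomb), 2.74 to 3.27 (ecdysone), 2.25 to 2.39 (signalling), 0.711 to 0.746 (adhesion), 0.0946 to 0.120 (channel), 0.300 to 0.407 (RNA-binding) and 0 to 0.328 (muscle). These settings pass fewer summits by construction.

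Within 100 bp of the summit, the ratio of member to background windows was 0.751 for GCCAT and 1.02 for TGAGTG, and it reversed to 0.813 for GTGTGTGT, 1.16 for TATCGATA and 0.358 for GGGCGG; the cause was not tested.

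Without depth, an absent member is an absence from the list. A gene without members must have over 123 kb of eligible intron to be called below.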

Other observations

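Most genes called below lay in repeat-rich sequence. Of the 11 genes below the overall density, Myo81F, Pzl, lovit, DIP-lambda, CG17684, l(3)80Fg, Snap25, CG40470 and Gprk1 had 71.1 to 100% of their eligible intron in repeat-rich stretches, and Dbp80 had 29.7%. bru3, an RNA-binding protein gene, had 0% of its 235 kb there, so that bru3 and Dbp80 lay mostly outside such stretches. bru3 had 0 summits in the eligible intron in each replicate list and 1 or more summits at a promoter. In repeat-rich eligible intron the pooled relaxed list held 28.9 summits per Mb, against 286 per Mb in the other eligible intron. How well reads can be placed in these stretches was not tested. Without them, the genes below were bru3, Myo81F, dpr6, dpr8, CG15465, rg, mbl, DIP-lambda and olf413, of which 3 were also below with them. CG15465 and rg share the same 109 kb.

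A further 11 intronic summits beyond 5 kb were left out because they lie in an exon of a noncoding RNA (9) or of a transposable element (2). The strongest was in osa, inside an exon of lncRNA:CR46035, at 13939 bp from the nearest coding start. It ranked 13 in the reproducible list, above every member, and 16, 16 and 11 in the replicates. Others were in puc, a phosphatase of JNK signalling (rank 814), in scrib (1274), in Bicra (1306), in Antp (1627), in Pvf3 (2891), in nkd (4002), in CG42342 (4957) and in Scr (5485). The INE-1 elements were in kek5 and CG6040. nkd had ranks of 1777, 10936 and 13651 in the replicates.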
